A study of Mus musculus with 2 samples.

Results

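The ADAMTS family of secreted proteases was described on 2 arrays of mouse ovary RNA, 1 from vehicle-treated and 1 from ulipristal-treated animals. The 8 genes followed were Adamts1, Adamts2, Adamts4, Adamts5, Adamts9, Adamts10, Adamts12 and Adamts15, and every probe set that the platform annotation assigned to exactly 1 of them was taken. This gave 15 of 34945 single-gene probe sets, for 7 of 18193 named genes. Adamts2, which trims the amino-terminal propeptides of fibrillar procollagens, had no such probe set and is not analysed here. Both groups were immature wild type CD-1 mice, 24 to 28 days old, injected first with 5 IU of PMSG (pregnant mare serum gonadotropin) to grow preovulatory follicles and then, after 48 h, with 5 IU of hCG (human chorionic gonadotropin) to start ovulation. At 2 h after hCG they received oil vehicle or ulipristal acetate, a selective modulator of the progesterone receptor, called UPA or CDB in the labels. Ovaries were collected at 11 h, without a statement of which injection this time was counted from. The labels give neither the dose of ulipristal nor the number of mice behind each array. With 1 array per group there is no spread between samples, so no test, error or p-value is given, and each difference is between these 2 arrays.

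ADAMTS proteins (a disintegrin and metalloproteinase with thrombospondin motifs) are zinc-dependent proteases that act outside the cell. They are made as inactive precursors, are activated by removal of a propeptide, often by furin-like convertases, and are held in check by tissue inhibitors of metalloproteinases, TIMP3 above all. Several members cleave the large hyaluronan-binding proteoglycans, among them versican, others act on procollagens or on the fibrillin microfibrils of elastic tissue, and Adamts1 is known as a gene induced by the ovulatory surge through the progesterone receptor in granulosa cells.

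Adamts1, Adamts4 and Adamts9 were lower on the ulipristal array, whereas Adamts5, Adamts10, Adamts12 and Adamts15 differed by less than 2-fold. Proteoglycan-cleaving enzymes stood on both sides of this split. A gene was given the value of its brightest probe set, and it counted as measured where the geometric mean of its signals on both arrays, after signals below a floor of 7.17 were raised to it, reached 30.8, the midpoint of the ranked non-control probe sets. All 7 genes with a probe set were measured, and 3 of them were at least 2-fold lower with ulipristal. For comparison, 1.56% of the 11364 measured genes on the arrays were lower by that much, and 4.9% differed by that much in either direction. None of the 7 was at least 2-fold higher, against 3.34% of all measured genes. The members' median log2 ratio of ulipristal over vehicle was -0.41, and that of all measured genes was 0.09. By probe set, 12 of the members' 15 were measured, and 5 of these were at least 2-fold lower, against 2.02% of the 19467 measured single-gene probe sets. The members had been chosen with earlier results of these arrays known, so these counts describe the family and give no independent support for its direction.

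**Figure D1:**
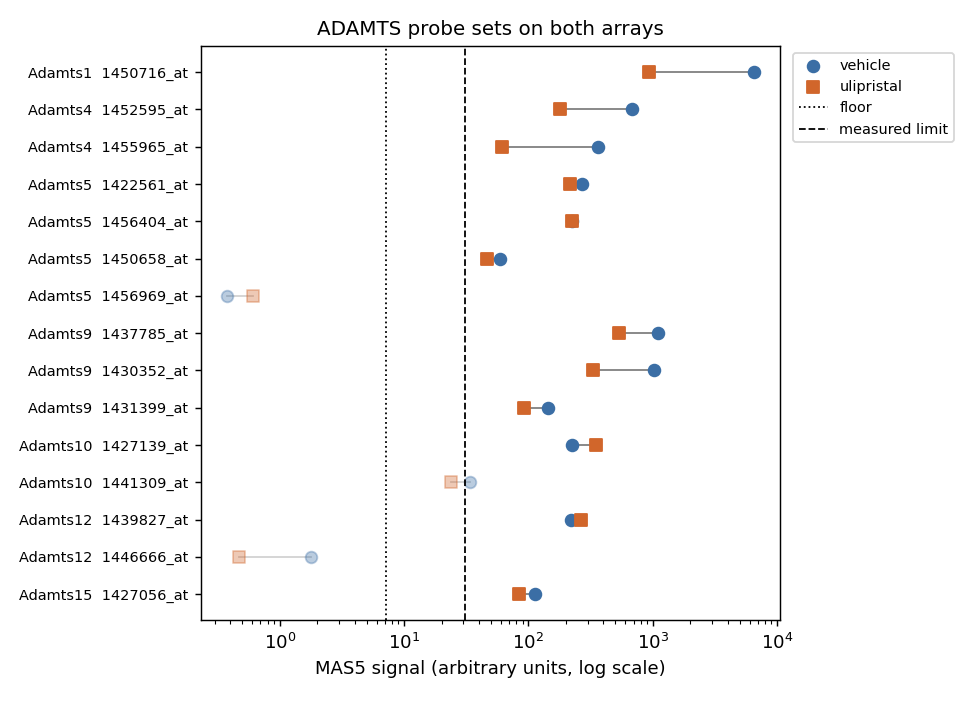
MAS5 signal of each ADAMTS probe set with vehicle (circles) and with ulipristal (squares), on a log axis in arbitrary units, 1 array per group. Pale symbols are the 3 probe sets too dim to count as measured; the dotted line is the floor of 7.17 and the dashed line the limit of 30.8. The widest gaps among measured probe sets are those of Adamts1 and of both Adamts4 probe sets.

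Adamts1, the member that cleaves versican in the matrix around the oocyte, had the largest difference of the family. Its only probe set, 1450716_at, read 6495 with vehicle and 936 with ulipristal. The vehicle signal was therefore the high value, and the log2 ratio was -2.80, or 6.94-fold lower with ulipristal. This was the 12th lowest ratio among the 11364 measured genes. Genes as bright as Adamts1 seldom differed this way: in its decile of mean signal, 18 of 1137 genes (1.58%) were at least 2-fold lower. With a single probe set there was no other reading of this gene on the array.

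Adamts4, an aggrecanase related to Adamts1, was lower by each of its probe sets. The brighter, 1452595_at, read 684 with vehicle and 180 with ulipristal, a log2 ratio of -1.92 (3.79-fold lower). The other, 1455965_at, read 360 and 60.9, a log2 ratio of -2.56. The readings agreed in direction and placed the brighter one 31st from the lowest among measured genes. In the decile of mean signal that holds Adamts4, 16 of 1137 genes (1.41%) were at least 2-fold lower.

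Adamts9, a protease with versican-cleaving activity and a long tail of thrombospondin repeats, was lower by all 3 of its probe sets, to different degrees. The brightest, 1437785_at, read 1096 with vehicle and 539 with ulipristal, a log2 ratio of -1.02 (2.03-fold lower). A probe set of similar brightness, 1430352_at, read 1016 and 329, a log2 ratio of -1.62. The dimmest, 1431399_at, read 143 and 92.8, a log2 ratio of -0.62, which is short of 2-fold. The gene thus stood at the 2-fold limit by its brightest probe set, at rank 169 from the lowest, and 30 of 1136 genes in its decile of mean signal (2.64%) were at least 2-fold lower. It was short of 2-fold after quantile normalization of both arrays (-0.99) and with 50 added to every signal (-0.96).

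Upstream sequence was in the RefSeq promoter table (GRCm38.p6) for 4 of the 8 genes: Adamts1, Adamts2, Adamts9 and Adamts12. The 250 bases before the start site are shown for Adamts1 and Adamts9, which were both lower with ulipristal, and for Adamts12, which was not, so that the letters of each window can be set side by side. Capitals mark every match, on either strand, to 9 motifs that were searched. Those of steroid receptors were the core site of the progesterone and glucocorticoid receptors, TGTTCT, and their full palindromic site, searched as a pair of such cores on opposite strands with any 3 bases between. Those of general promoter factors were the GC box, spelled GGGCGG, and the TATA box, spelled TATAAA. The motif of C/EBP factors was spelled TTGCNNAA, and that of the NF1 factors, as a core site, TTGGC. For the factors of the cyclic AMP response the core letters TGACG were taken, for AP-1 the letters TGANTCA, and for RUNX factors the letters TGTGGT.
Adamts1, chr16:85803114-85803363, minus strand: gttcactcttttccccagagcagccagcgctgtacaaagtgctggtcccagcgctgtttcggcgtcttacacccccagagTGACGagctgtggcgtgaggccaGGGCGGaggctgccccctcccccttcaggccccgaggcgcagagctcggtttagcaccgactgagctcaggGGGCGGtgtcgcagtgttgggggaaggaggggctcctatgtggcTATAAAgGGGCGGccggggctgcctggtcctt
Adamts9, chr6:92943535-92943784, minus strand: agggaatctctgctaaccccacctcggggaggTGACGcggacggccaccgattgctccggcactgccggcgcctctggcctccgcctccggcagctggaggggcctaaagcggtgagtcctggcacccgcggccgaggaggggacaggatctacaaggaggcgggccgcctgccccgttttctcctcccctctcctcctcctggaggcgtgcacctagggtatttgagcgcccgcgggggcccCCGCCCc
Adamts12, chr15:11064523-11064772, plus strand: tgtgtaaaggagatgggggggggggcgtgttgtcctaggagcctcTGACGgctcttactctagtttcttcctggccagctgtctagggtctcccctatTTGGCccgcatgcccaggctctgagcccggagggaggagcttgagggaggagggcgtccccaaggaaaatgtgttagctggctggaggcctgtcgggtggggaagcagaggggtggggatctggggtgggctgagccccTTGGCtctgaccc
The Adamts1 window held 3 GC boxes, beginning 147, 76 and 25 bases before the start site, a cyclic AMP response core site at 170 bases and a TATA box at 32 bases. The Adamts9 window held 1 GC box, at 7 bases, and 1 cyclic AMP response core site, at 218 bases. The Adamts12 window held no GC box, a cyclic AMP response core site at 205 bases and NF1 core sites at 152 and 13 bases. Over all 32851 windows of this length, 32.7% held a GC box, 17.8% the cyclic AMP response core site, 41.5% the NF1 core site and 12.4% the TATA box. The receptor core site, present in 16.1% of all windows, had no match in these 3, nor had the full site (0.00913% of windows), the C/EBP motif (9.56%), AP-1 (6.75%) or RUNX (14.0%). GC made up 65.6% of the Adamts1 window, 71.2% of that of Adamts9 and 63.2% of that of Adamts12, against a median of 52.4% over all windows, and a GC box is itself made of G and C only. A match describes letters in the window and not a bound site.

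Adamts5, an aggrecanase whose gene neighbours Adamts1, differed little between the arrays. Its brightest probe set, 1422561_at, read 268 with vehicle and 216 with ulipristal, a log2 ratio of -0.31. A second of like brightness, 1456404_at, read 224.0 and 223.9, a log2 ratio of -0.00091. The third measured probe set, 1450658_at, read 59.3 and 46.0, a log2 ratio of -0.37. The remaining one, 1456969_at, read 0.378 and 0.610, below the floor on both arrays, and has no ratio. Adamts15, another proteoglycan-cleaving member, read 113 with vehicle and 84.5 with ulipristal on its only probe set, 1427056_at, a log2 ratio of -0.41. Both genes lay below 0, as did 40% of all measured genes.

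Adamts10 and Adamts12 were the members above 0. Adamts10, which binds fibrillin-1 in microfibrils, read 223 with vehicle and 348 with ulipristal on probe set 1427139_at, a log2 ratio of 0.65 (1.56-fold higher). Its other probe set, 1441309_at, was too dim to count as measured and went the other way, with signals of 34.1 and 24.0. Adamts12, a protease that can cleave cartilage oligomeric matrix protein, read 221 and 267 on 1439827_at, a log2 ratio of 0.28. Its other probe set, 1446666_at, read 1.77 and 0.469, below the floor on both arrays.

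**Figure D2:**
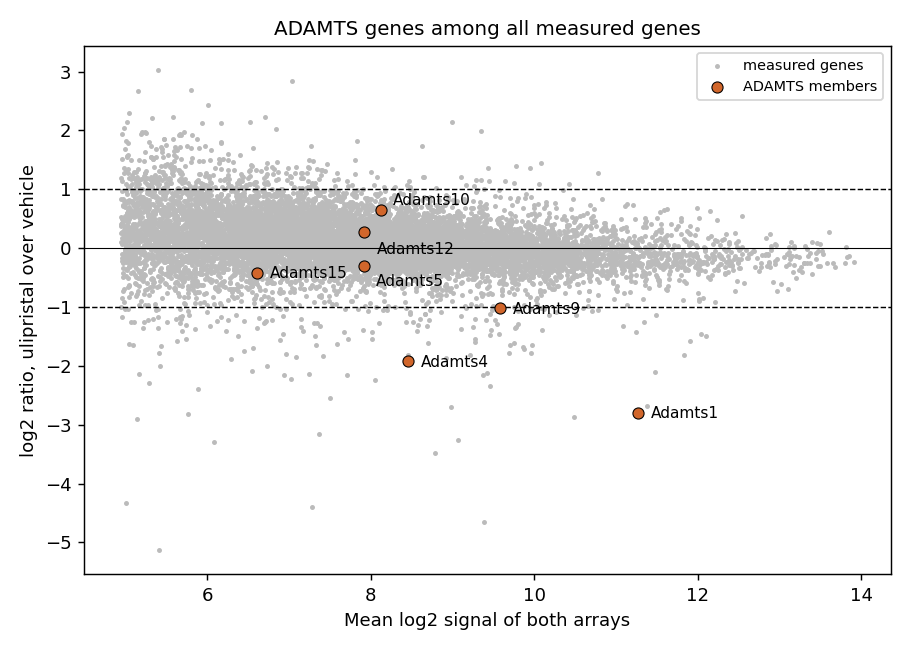
The log2 ratio of ulipristal over vehicle (vertical axis) against the mean log2 signal of both arrays (horizontal axis) for the 11364 measured genes (grey) and the 7 measured ADAMTS members (orange), 1 array per group. Dashed lines mark 2-fold; Adamts1 at -2.80, Adamts4 at -1.92 and Adamts9 at -1.02 lie at or beyond the lower line, and the other 4 members lie between the lines.

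Most of the rest of the family could not be read on these arrays. Of 11 other ADAMTS genes, 3 had no single-gene probe set (Adamts13, Adamts14 and Adamts17), 5 were too dim to count as measured (Adamts8, Adamts16, Adamts18, Adamts19 and Adamts20) and 3 were measured. Past 2-fold there was 1 lower gene and 0 higher ones, against 1.56% and 3.34% of all measured genes. The lower gene was Adamts3, a processor of procollagen and of the lymphatic growth factor VEGF-C. Its measured probe set read 169 with vehicle and 83.1 with ulipristal, a log2 ratio of -1.03, and -0.72 with 50 added to every signal. Adamts6 read 61.6 and 73.7, a log2 ratio of 0.26, and Adamts7, the closest relative of Adamts12, read 32.3 and 50.2, a log2 ratio of 0.64. Another probe set of Adamts6, too dim to count as measured, went the other way, with 31.8 and 21.8 (-0.54). Among 6 ADAMTS-like genes, their relative Papln included, which carry the family's ancillary domains without the protease, 3 were measured and 0 reached 2-fold. Adamtsl2 read 120 and 87.7 (log2 ratio -0.45), Adamtsl1 read 50.6 and 68.2 (0.43), and Adamtsl4 read 97.7 and 148 (0.60).

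Of 22 listed substrates, the proteins that ADAMTS enzymes cut, 18 were measured as message. Versican was the 1 past 2-fold on its brightest probe set, and it was lower. Of all measured genes, 1.56% were lower by that much and 3.34% higher. With each gene taken as the median of its probe sets, or with no filter on signal, 1 substrate was also at least 2-fold higher. Vcan, which encodes this hyaluronan-binding proteoglycan, read 5887 with vehicle and 1376 with ulipristal on its brightest probe set, a log2 ratio of -2.10. Its 4 measured probe sets, of 8, gave log2 ratios from -2.48 to -1.89. The substrate list as a whole had a median log2 ratio of 0.07. Next in size came Comp, the cartilage oligomeric matrix protein, with signals of 120 and 229 (log2 ratio 0.93), Tfpi2, a protease inhibitor of the matrix, with 121 and 72.4 (-0.74), and Vwf, the von Willebrand factor of endothelium, with 31.5 and 52.6 (0.74). Col1a1, a chain of type I collagen, read 864 and 1092 on its brightest probe set (0.34) and 452 and 1708 on its other one (1.92), and was named after its values were seen. Acan, Ncan and Col2a1 were too dim to count as measured, and Fbn1 had no single-gene probe set.

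Genes that activate, inhibit or clear ADAMTS enzymes went both ways. All 15 were measured, with a median log2 ratio of -0.10. Past 2-fold there was 1 lower gene and 1 higher one, against 1.56% and 3.34% of all measured genes. Sdc4, the cell-surface proteoglycan syndecan-4, read 1769 with vehicle and 678 with ulipristal, a log2 ratio of -1.38, and its other probe set gave -1.13. Timp4, a metalloproteinase inhibitor, was the higher gene, with signals of 70.4 and 151 and a log2 ratio of 1.10, and its other probe set gave 0.95. The 2-fold difference of Timp4 was not reached after quantile normalization (0.98), after lowess centring (0.98) or with 50 added to every signal (0.74). Pcsk5, a furin-like convertase, read 5583 and 3059 (log2 ratio -0.87), and its 5 probe sets ranged from -0.87 to -0.05. Timp1, another inhibitor, read 4060 and 2473 (-0.72). Timp3, the main inhibitor of the family, read 1008 and 986 on its brightest probe set, a log2 ratio of -0.03, with its other probe sets up to 0.40. Furin read 374 and 325, a log2 ratio of -0.20. Pofut2, which attaches fucose to thrombospondin repeats, had log2 ratios of -0.22 on its brightest probe set and 1.16 on a dimmer one. Pofut2 was named after its values were seen, and Timp3 and Furin were named for their role and after their values were seen.

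The hyaluronan matrix in which versican lies had a median log2 ratio of -0.63 over 7 measured genes. Of these, 3 were lower by at least 2-fold and 0 higher, against 1.56% and 3.34% of all measured genes. Over all 14 listed genes, dim ones included, the median was -0.11, and again 3 were at least 2-fold lower and 0 higher. Has1, a hyaluronan synthase, read 213 with vehicle and 21.6 with ulipristal, a log2 ratio of -3.30. Tnfaip6, which joins heavy chains to hyaluronan, read 322 and 90.1 (-1.84). Has2, the synthase of the cumulus, read 58.0 and 18.8 (-1.62), and did not reach 2-fold with 50 added to every signal (-0.65) or with the floor raised to the 50th percentile (-0.90). Ptx3, a pentraxin that crosslinks this matrix, read 194 and 125 (-0.63). Has1 and Has2 read below the limit of 30.8 on the ulipristal array and counted as measured because of their vehicle signals. The other 7 of the 14 listed genes, the versican-linking protein Hapln1 among them, were too dim to count as measured. With only genes above the 75th percentile of signal kept, 1 gene of this list remained at least 2-fold lower.

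**Figure D3:**
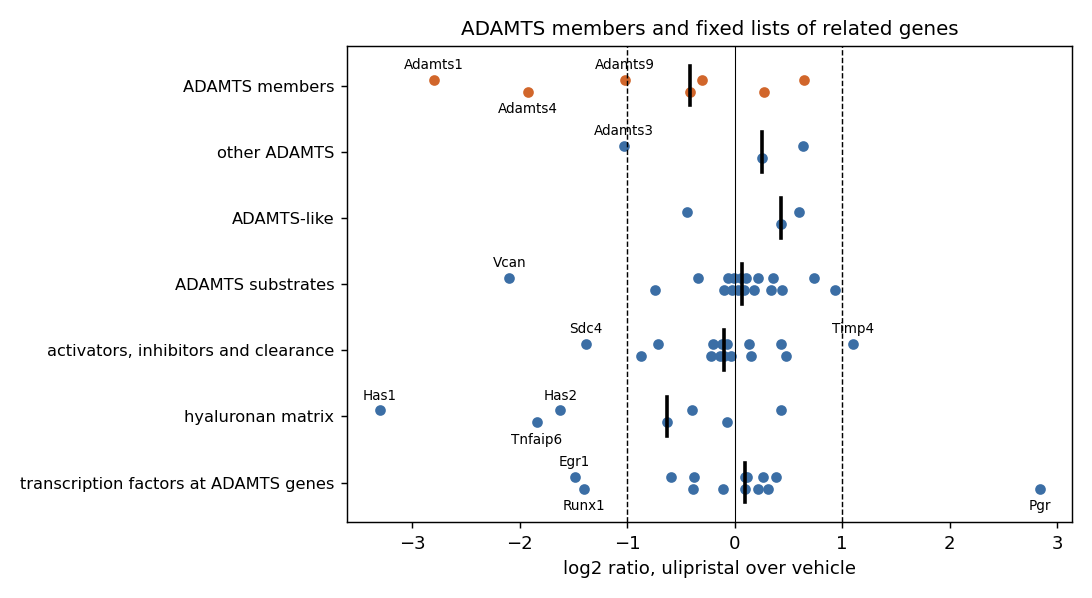
The log2 ratio of ulipristal over vehicle for each measured gene of the ADAMTS members (orange) and of 6 lists of related genes (blue), 1 array per group. Each point is a gene, black bars are list medians, dashed lines mark 2-fold, and genes at or past 2-fold are named; the medians run from -0.63 for the hyaluronan matrix to 0.43 for ADAMTS-like genes.

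Transcription factors listed for a reported action at ADAMTS or related ovulatory genes had a median log2 ratio of 0.10 over 14 measured genes. Of these, 2 were lower by at least 2-fold and 1 higher, against 1.56% and 3.34% of all measured genes. Egr1, an early growth response factor, read 7379 with vehicle and 2631 with ulipristal, a log2 ratio of -1.49. Runx1, a factor of the ovulatory follicle, read 1154 and 438 (-1.40), with 6 probe sets from -1.73 to -0.11. The median over these probe sets was -0.98, short of 2-fold. Pgr, the progesterone receptor, was the higher gene, with signals of 49.2 and 351 on its 1 measured probe set of 3 (2.83). Hif1a, the hypoxia factor, read 4546 and 3019 (-0.59), with a dimmer probe set at -1.08. Nfia, an NF1 factor, had log2 ratios of 0.09 on its brightest probe set and -1.18 on a dimmer one. Cebpb, the C/EBP factor of the ovulating follicle, read 3714 and 2835 (-0.39), and Sp1, which binds GC boxes, read 792 and 980 (0.31). Nfia was named after its values were seen, and Cebpb and Sp1 were named for their role and after their values were seen.

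The genes most like Adamts1 in both signals at once were found by Euclidean distance over the log2 signals of the 2 arrays, a likeness that covers only these 2 values. Errfi1, which damps signalling by the receptor for epidermal growth factor, was nearest at a distance of 0.18, with signals of 6713 and 1053. Vcan came next at 0.57. Then followed Odc1, the first enzyme of polyamine synthesis, at 0.97 (3970 and 1479), Mt2, a metallothionein, at 1.06 (6872 and 1948), and Abhd2, a serine hydrolase, at 1.07 (3450 and 1380). All 5 were at least 2-fold lower with ulipristal, which nearness to Adamts1 largely fixes.

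Markers of cell types were read beside these values because whole ovaries were used, and fewer cells of a type and less RNA per cell cannot be told apart. Granulosa markers, the cells in which Adamts1 is known to be induced, were measured for all 10 genes, and all 10 lay above 0. Their summed signal was 13175 with vehicle and 17806 with ulipristal. Of the 6 measured theca and interstitial markers 5 lay above 0, with sums of 5149 and 7090 over all 6. The remaining one, Hhip, read 280 and 60.0, a log2 ratio of -2.22. Endothelial markers had 9 of 10 above 0 (sums of 2240 and 2712), smooth muscle and pericyte markers 8 of 10 (18732 and 20486), stromal fibroblast markers 8 of 9 (28926 and 33366), and macrophage markers 8 of 9 (1602 and 1796). The oviduct (6 of 6, with sums of 3825 and 6122), surface epithelium (8 of 9, 1464 and 2143) and adipose markers (3 of 3, 1827 and 2586) also stood higher with ulipristal. Ovgp1, with 3641 and 5642, made up most of the oviduct sums. At least 2-fold higher were 5 of the 6 measured oviduct markers (median log2 ratio 1.29) and 5 of the 10 granulosa markers (0.97). So were 2 of 6 theca and interstitial, 2 of 10 endothelial, 1 of 3 adipose and 1 of 3 neutrophil markers. In the surface epithelium and macrophage lists 1 of 9 each was, and in the remaining marker lists 0. This compares with 3.34% of all measured genes. Foxj1 and Ccdc39 of the oviduct list read 19.1 and 27.4 with vehicle, below 30.8. They counted as measured because of their ulipristal signals of 75.1 and 72.9. Dnah5, with 10.7 and 19.4, was too dim to count as measured. Oocyte markers had 7 of 9 measured genes above 0, with sums of 1941 and 2150. Of the 3 measured neutrophil markers, S100a9 and S100a8 lay below 0 (log2 ratios of -1.88 and -1.46) and Ltf above it (1.45). Their sums were 416 and 289. Another 4 were too dim to count as measured. Of these, Camp read 43.9 and 5.58, Ngp 27.5 and 12.3 and Mpo 17.4 and 2.41, all lower with ulipristal. Elane was below the floor on both arrays. Hhip, Ovgp1, Foxj1, Ccdc39, Dnah5 and all the neutrophil genes given here were named after their values were seen. Of all measured genes, 6818 of 11364 lay above 0. No marker had a signal of 0 on either array. The part of these differences in the ADAMTS values was not tested. Of the stromal fibroblast markers, Col1a1, Col1a2 and Col3a1 also stand in the list of substrates and Fbln1 in that of activators, inhibitors and clearance. Vwf, of the endothelial markers, also stands in the list of substrates.

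The arrays also differed in control features. Poly-A spikes were 1.49-fold brighter on the vehicle array, hybridisation spikes 1.19-fold and 18S ribosomal RNA 2.41-fold, as medians of 24, 18 and 3 features. The ratio of 3′ to 5′ signal was 1.20 with vehicle and 0.87 with ulipristal for Gapdh, and 2.40 and 1.87 for beta-actin. Their part in the ADAMTS values was not tested. Of all measured genes past 2-fold 68.2% were higher with ulipristal, and quantile normalization put this share at 57.3% and lowess centring at 56.7%.

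**Figure D4:**
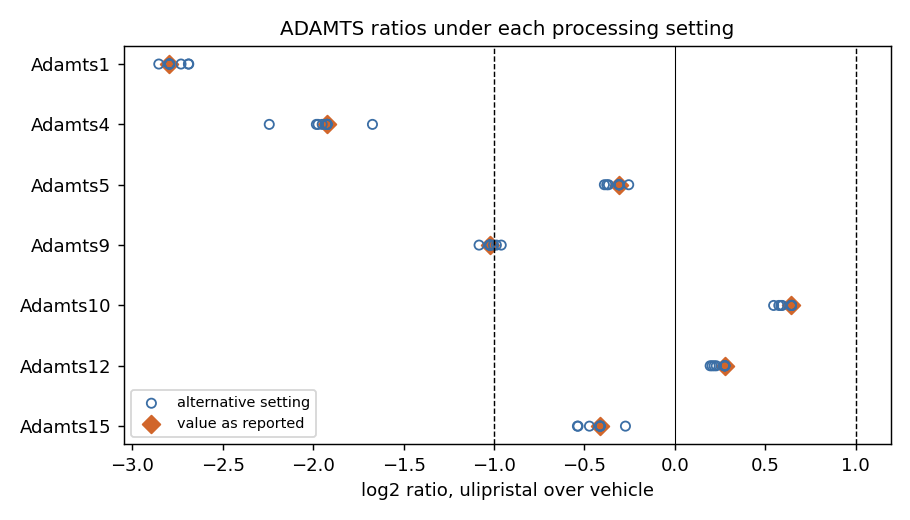
The log2 ratio of ulipristal over vehicle of the 7 measured ADAMTS members as reported (diamonds) and under each alternative processing setting (open circles), 1 array per group; dashed lines mark 2-fold. No member changed its sign, and Adamts9 is the member whose values lie on both sides of the lower line, from -1.08 to -0.96.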

How the data were processed

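RNA of whole ovaries was hybridised to the Affymetrix Mouse Genome 430 2.0 array, as the labels' protocols state. The authors deposited 1 intensity per probe set and array, unlogged. Per the submitters' processing notes, MAS5 and version 1 of Affymetrix Expression Console were used, with no roles given. Leaving out the lowest and highest 2% of values, both arrays had a mean of 150.001, so they had been scaled to the same level and a general shift could not be seen. The sources used here do not give the genome build of the probes. Of 45101 probe sets, 64 were controls. Symbols were checked through gene identifiers for 34741 of the 34945 single-gene probe sets, and 0 had changed in RefSeq.

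Signals were raised to a floor at the 25th percentile of non-control values (7.17) before log2 was taken. The number of arrays, 1 per group, limits the precision. The text names all members, the measured ADAMTS and ADAMTS-like genes, in each further list the genes past 2-fold and the 4 largest ratios, and the 5 genes nearest to Adamts1. Others given with their values are said to have been chosen after these were seen. Members and lists were chosen with earlier results of these data known. The steps were tested on simulated data. Alternatives changed the scaling, the floor, the filter, the gene value or the fold. The software was Python 3.11.15 with numpy 2.4.6 and pandas 2.3.3; lowess came from statsmodels 0.14.6 and plots from matplotlib 3.10.9.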

Additional observations from a re-analysis of the deposited data

How the results depend on the processing

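Under the 10 alternatives that kept the 2-fold limit, 2 or 3 ADAMTS members were at least 2-fold lower, and the members' median log2 ratio ranged from -0.67 to -0.27. At a limit of 1.5-fold 3 members were lower, and at 3-fold 2 were, against 4.58% and 0.502% of all measured genes. Adamts1 ranged from -2.85 to -2.69 and Adamts4 from -2.24 to -1.67. Adamts10 was the 1 member higher at the limit of 1.5-fold, as were 12.3% of all measured genes. The share of measured genes past 2-fold in either direction was 4.90%, and it was 1.34% with 50 added to every signal, 8.16% without a filter, 2.25% with the filter at the 75th percentile, 16.9% at 1.5-fold and 1.03% at 3-fold. The share of genes higher among those past the fold was 35.5% with 50 added and 36.5% with the filter at the 75th percentile, against 68.2% as reported. Adamts15 was too dim to count as measured under the 75th percentile filter. No paired analysis was possible because each group has 1 array and no result comes from a test. Low signal limits the genes below 30.8, which entered no count of measured genes as reported but did enter the counts made without a filter.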

Other observations

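The ADAM genes, which encode relatives of the ADAMTS proteases that are anchored in the cell membrane, were looked up by symbol after the ADAMTS values were seen. Of 28 such genes with a single-gene probe set, 9 were measured, and 0 of these differed by 2-fold or more on their brightest probe set, against 4.90% of all measured genes. Their median log2 ratio was 0.12. Adam9 had the lowest ratio of these 9, with signals of 1511 with vehicle and 1084 with ulipristal (log2 ratio -0.48). Adam10 and Adam17, the main shedding enzymes of growth factor precursors, read 1608 and 1258 (-0.35) and 519 and 620 (0.26) on their brightest probe sets. Another probe set of Adam17 went the other way, with 375 and 262 (-0.52). Adam12 read 194 and 239 (0.30) on its brightest probe set and was past 2-fold on a dimmer one, with 32.2 and 71.1 (1.14). Adam8, a protease of leukocytes, had the highest, with 114 and 146 (0.35).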
